A study of Mus musculus with 9 samples.

Results

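The nuclear-encoded subunits of the mitochondrial oxidative phosphorylation system were followed in BCR/ABLp185+ transformed mouse bone marrow cells with and without 1 of the 2 STAT5 proteins. Members were taken by gene symbol: names beginning with Nduf except the Ndufaf assembly factors, Sdha to Sdhd, names beginning with Uqcr, Cox4 to Cox8 and names beginning with Atp5, without -ps pseudogenes. The rule found 89 genes of the 50686 in the count tables, 41 for complex I, 4 for complex II, 8 for complex III, 19 for complex IV and 17 for complex V. No measured value entered the rule. Assignment by name is approximate at the edges, since Ndufa4 is now placed in complex IV, Cox7a2l promotes the joining of complexes III and IV, and Atp5s is a coupling factor of the ATP synthase.

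The study asked what the near-identical transcription factors STAT5A and STAT5B each contribute to BCR/ABL-driven leukemia. Polyadenylated RNA was sequenced from 3 cell lines of the C57BL/6N background, a wild-type line (wt), a line lacking STAT5A (Stat5a-/-) and a line lacking STAT5B (Stat5b-/-). All 3 lines carry the BCR/ABLp185 oncogene, were derived from infected bone marrow and were grown in RPMI medium with serum, without further treatment. Each genotype is 1 line measured as 3 technical replicates, 9 libraries in all, so the spread between replicates is technical, the p-values below compare these 3 lines, and genotype and line cannot be told apart. The free-text descriptions of the knockout samples call them wt lines, whereas their titles, sources and genotypes name the knockouts, which are used here.

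Oxidative phosphorylation couples the oxidation of NADH and succinate to ATP synthesis in the inner mitochondrial membrane. Complex I takes electrons from NADH and complex II from succinate, complex III passes them from ubiquinol to cytochrome c, complex IV hands them to oxygen, and complex V uses the resulting proton gradient to make ATP. Complexes I, III, IV and V combine subunits made from mitochondrial DNA with the nuclear-encoded ones described here, while complex II is wholly nuclear-encoded. Several complex IV subunits exist as a ubiquitous and a tissue-restricted isoform, such as Cox6a1 and the heart and skeletal muscle form Cox6a2.

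The libraries held between 11948136 and 19016396 reads counted in genes, and 13852 genes passed the filter on low counts. The targeted genes kept reads in every library. Stat5a had normalised CPM values of 48.2, 36.0 and 45.3 in wt, 11.8, 11.9 and 13.6 in Stat5a-/- and 87.1, 91.7 and 72.2 in Stat5b-/- (CPM, counted reads relative to the library total, scaled by the trimmed mean of M values). Stat5b stood at 107, 103 and 106 in wt, 145, 124 and 156 in Stat5a-/- and 72.3, 58.5 and 59.5 in Stat5b-/-. Each knocked-out gene was thus lowest in its own line, and the other paralog was higher there than in wt. All 10 B-lineage markers checked had reads, with summed levels of 4890 to 5233 normalised CPM in wt, 6717 to 7421 in Stat5a-/- and 5800 to 6643 in Stat5b-/-. Against wt, 5 of the 10 were called higher and 3 lower in Stat5b-/-, and 6 higher and 1 lower in Stat5a-/-, the lowest being Rag1, of the antigen receptor recombinase, with log2 fold changes of -6.59 and -8.59. All 16 T-cell markers also had reads, and 15 of them were called higher in Stat5b-/- than in wt and 8 in Stat5a-/-, with summed levels of 863 to 1175 in wt, 1514 to 1750 in Stat5a-/- and 1906 to 2715 in Stat5b-/-. Myeloid markers summed to 3.99 to 6.51 normalised CPM in wt, 4.72 to 6.43 in Stat5a-/- and 9.43 to 10.6 in Stat5b-/-, and erythroid markers to 11.5 to 13.8, 11.7 to 14.6 and 2.74 to 3.81, with Slc4a1 at 0 reads. Of each list 2 of 8 genes could be tested, and in Stat5b-/- against wt both myeloid genes were called higher and both erythroid genes lower. The part of these marker changes in the subunit results was not tested.

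Of the 89 subunit genes, 80 passed the filter (38 of complex I, all of complexes II, III and V, and 13 of complex IV). The 9 others had at most 11 reads in any library: Ndufa4l2, Ndufb4c, Ndufs6b, Cox4i2, Cox6b2, Cox6c2, Cox7b2, Cox8b and Cox8c, the last 3 with 0 reads in all 9 libraries. Most of these are isoforms or copies known from other tissues, for example the lung form Cox4i2, the testis form Cox6b2 and the heart and muscle form Cox8b. The level per length was taken as normalised CPM per kilobase of exon, averaged over all 9 libraries. On this scale complex I was led by Ndufs8 (356), Ndufa3 (325) and Ndufa6 (291), and Sdhd led complex II (127). In complex III, Uqcr10 (349), Uqcr11 (218) and Uqcrq (214) were highest and Uqcrc2 (49.1) and Uqcrb (21.9) lowest. Cox8a (903), Cox6a1 (587) and Cox6b1 (468) led complex IV, and Atp5k (539), Atp5g3 (439) and Atp5mpl (288) led complex V. The range within the complexes was wide, down to 1.44 for Ndufab1, the acyl carrier protein, 2.77 for Atp5g2 and 1.79 for Atp5l. Reads matching more than 1 place were not counted by the authors, and 38.3% of the 50-base windows of Atp5g2 transcripts also occur in another annotated gene. More than 10% of windows were shared in this way for 20 of the 80 tested genes, whose levels are uncertain. Ndufab1 (9.27%) and Atp5l (9.99%) fell just under that limit.

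The first comparison asked how the respiratory chain genes stand in Stat5b-/- against wt. In Stat5b-/- cells 24 of the 80 subunit genes were called lower and 2 higher, and 60 of 80 log2 fold changes were negative, with a median of -0.22 against 0.02 over all 13852 genes tested (edgeR quasi-likelihood test, Benjamini-Hochberg adjusted p under 0.05). The background was broad: 22% of all genes tested were called lower and 24.2% higher in this comparison, so the share of subunit genes called lower (30%) was not far above that of all genes, while the share called higher (2.5%) was below it. The count of 2 called higher became 5 with a correction for length and 7 with corrections for GC content and length, 0 without wt replicate 2 or 3 or Stat5b-/- replicate 2 or 3, and 1 without Stat5a-/- replicate 1 or 2. With the same corrections, length alone or GC content and length, the median of -0.22 became -0.14 or -0.15. The changes were small. Only Cox6a2 was lower by more than 2-fold, against 8.44% of all genes tested. In 20 of the 24 genes called lower the Stat5b-/- libraries lay wholly below the wt libraries, which is 83.3% of them beside 97.6% of all 3049 genes called lower. Both criteria were met by 25% of the tested subunit genes and by 21.5% of all genes tested. In bulk RNA, fewer cells of a type and less RNA per cell cannot be told apart.

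The summed levels of the subunits were lower in Stat5b-/- as well. Complex I genes summed to normalised CPM values of 5044, 4593 and 4746 in wt, 5210.1, 5717 and 5219.8 in Stat5a-/- and 3689, 4408 and 4393 in Stat5b-/-. Complex II genes summed to 718, 627 and 684 in wt, 647, 704 and 671 in Stat5a-/- and 526, 623 and 621 in Stat5b-/-. Complex III genes summed to 1908, 1567 and 1705 in wt, 1512, 1654 and 1587 in Stat5a-/- and 1195, 1399 and 1356 in Stat5b-/-. For these 3 complexes every Stat5b-/- library lay below every wt library, narrowly so in complex II. Complex IV genes summed to 3189, 2505 and 2659 in wt, 2857, 3401 and 3058 in Stat5a-/- and 2119, 2485 and 2397 in Stat5b-/-. Complex V genes summed to 6390.1, 5480.2 and 5741 in wt, 5939, 6121 and 6476 in Stat5a-/- and 4669, 4974 and 4784 in Stat5b-/-. Here too the highest Stat5b-/- library stayed under the lowest wt library, though only narrowly in complex IV. As a percentage of the wt mean, Stat5b-/- stood at 86.8% for complex I, 87.2% for complex II, 76.2% for complex III, 83.8% for complex IV and 81.9% for complex V. Stat5a-/- stood at 112%, 99.6%, 91.8%, 112% and 105% in the same order.

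**Figure D1:**
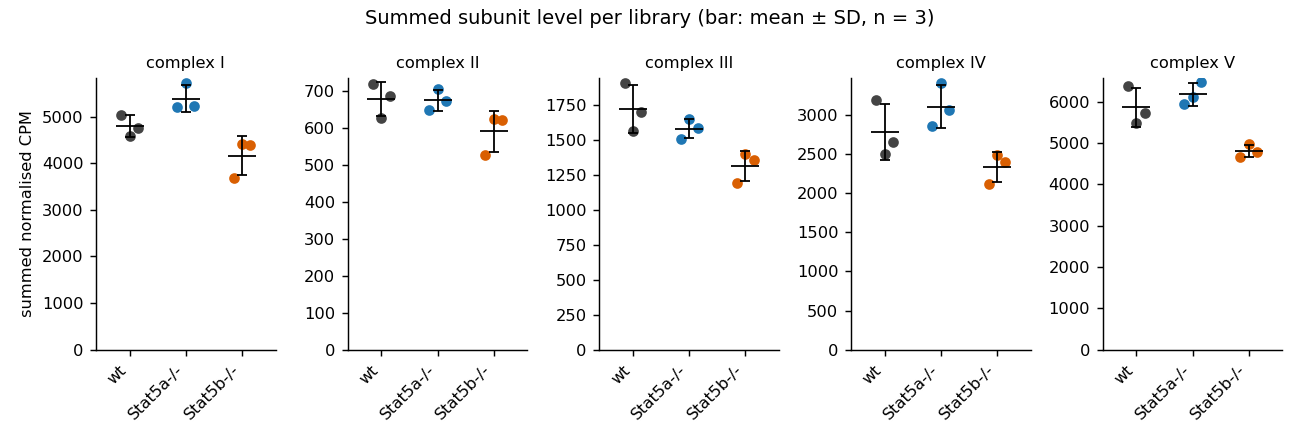
Summed normalised CPM of the subunit genes of each complex (y axis, from 0) in the 9 libraries, grouped by line (x axis). Points are libraries, and bars give the mean ± SD of 3 technical replicates. The Stat5b-/- points lie below the wt points in all 5 panels, and the Stat5a-/- points lie wholly above the wt points only in complex I.

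**Figure D2:**
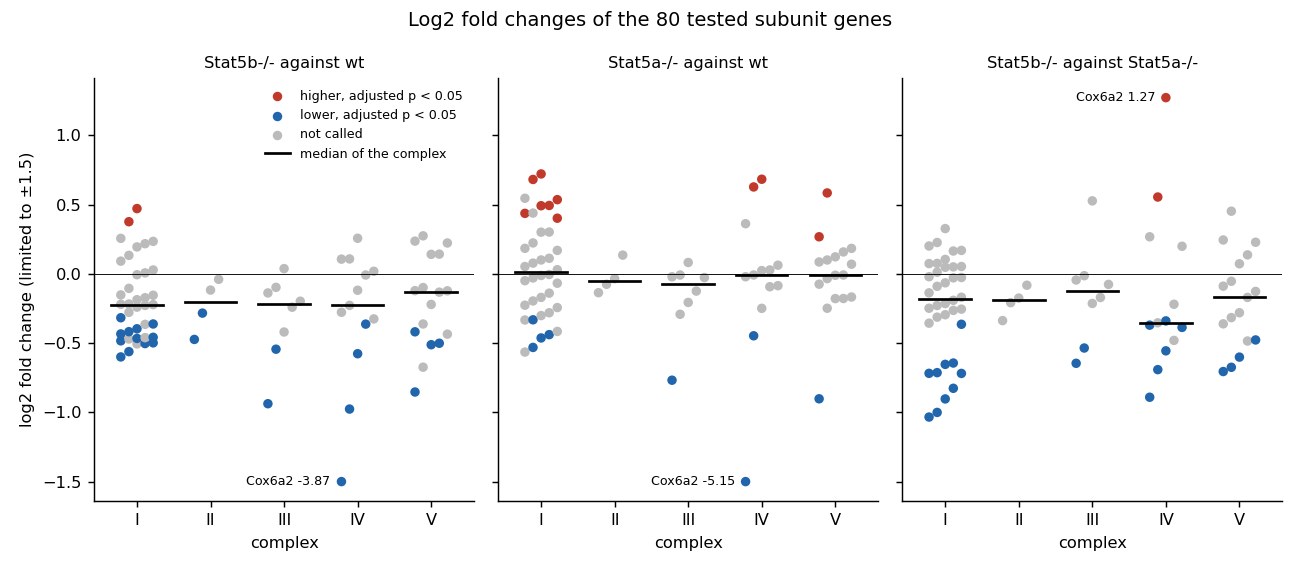
Log2 fold change (y axis) of each of the 80 tested subunit genes by complex (x axis) in the 3 comparisons, where points are genes, coloured by the call at adjusted p under 0.05, and black bars are medians. Cox6a2, whose values are printed beside it, lies outside the drawn range in both comparisons with wt, and most points of Stat5b-/- against wt lie below 0.

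In complex I, 12 of 38 tested genes were called lower and 2 higher in Stat5b-/- against wt (median log2 fold change -0.22). Nuclear core subunits build the arm that holds the flavin and iron-sulfur clusters. Ndufs1, which holds iron-sulfur clusters of the electron entry arm, had normalised CPM values of 74.4, 85.6 and 81.6 in wt, 61.5, 60.7 and 53.1 in Stat5a-/- and 47.0, 51.8 and 60.7 in Stat5b-/-, both knockout lines lying below wt. Against wt, Stat5b-/- cells differed by -0.60 ± 0.12 (SE, adjusted p = 0.00092) on the log2 scale. Ndufs8, an iron-sulfur subunit near the ubiquinone site, stood at 360.0, 313 and 305 in wt, 452, 465 and 499.9 in Stat5a-/- and 209, 264 and 219 in Stat5b-/-, highest in Stat5a-/- and lowest in Stat5b-/- with no overlap between the 3 lines. Stat5b-/- cells differed from wt by -0.50 ± 0.11 (SE, adjusted p = 0.0028) on the log2 scale. Ndufs7 changed by -0.36 ± 0.13 (SE, adjusted p = 0.042), with libraries that overlapped those of wt and a call that was lost without wt replicate 1 or 3 or without Stat5b-/- replicate 1 or 3. Further core values did not pass the test, with log2 fold changes of -0.22 for Ndufs3, -0.15 for Ndufv1, the NADH-binding subunit, and -0.22 for Ndufv2. The 2 genes called higher were the small membrane-arm subunits Ndufa1 (0.47 ± 0.18 (SE, adjusted p = 0.044)) and Ndufb7 (0.38 ± 0.13 (SE, adjusted p = 0.032)). Their libraries overlapped between the lines, and neither was called without wt replicate 2, wt replicate 3, Stat5b-/- replicate 2 or Stat5b-/- replicate 3.

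Complex II, which is also the succinate dehydrogenase of the tricarboxylic acid cycle, had negative log2 fold changes for all 4 genes. Sdhb, the iron-sulfur subunit, had normalised CPM values of 145, 131 and 143 in wt, 121, 144 and 116 in Stat5a-/- and 76.1, 112 and 113 in Stat5b-/-, and the Stat5b-/- libraries lay below wt. Stat5b-/- stood apart from wt by -0.47 ± 0.14 (SE, adjusted p = 0.016) in log2 terms, not called without wt replicate 3. Sdhd, a membrane anchor, changed by -0.28 ± 0.11 (SE, adjusted p = 0.047), with 1 Stat5b-/- library inside the wt range and the call lost without wt replicate 1 or 3 or Stat5b-/- replicate 1 or 3. The values for the flavoprotein Sdha (-0.12) and the anchor Sdhc (-0.04) did not pass the test.

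In complex III, 2 of 8 genes were called lower in Stat5b-/- against wt, both small supernumerary subunits. Uqcrq, which sits beside cytochrome b, had normalised CPM values of 547, 456 and 504 in wt, 395, 448 and 388 in Stat5a-/- and 205, 299 and 283 in Stat5b-/-. The 3 lines did not overlap, wt being highest and Stat5b-/- lowest. On the log2 scale Uqcrq changed in Stat5b-/- against wt by -0.94 ± 0.14 (SE, adjusted p = 0.0001). Uqcr11 had a log2 fold change of -0.54 ± 0.15 (SE, adjusted p = 0.011). The catalytic Rieske protein Uqcrfs1 and the core proteins Uqcrc1 and Uqcrc2 had log2 fold changes of -0.10, -0.20 and -0.14, none past the test.

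In complex IV, 4 of 13 tested genes were called lower in Stat5b-/- against wt and none higher. Apart from the isoforms below these were Cox5b, a zinc-binding subunit, at -0.36 ± 0.10 (SE, adjusted p = 0.0077) on the log2 scale and Cox6b1, which faces the intermembrane space, at -0.58 ± 0.12 (SE, adjusted p = 0.0014). Cox6b1 had normalised CPM values of 426, 342 and 354 in wt, 335, 424 and 347 in Stat5a-/- and 242, 263 and 248 in Stat5b-/-, so that the Stat5b-/- libraries lay below all 6 others. Cox4i1 and Cox6a1, the ubiquitous forms of their subunits, had log2 fold changes of -0.33 and -0.28. Cox5a, which has no tissue-restricted counterpart among the members, stood at -0.12, and none of these values passed the test.

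In complex V, 4 of 17 genes were called lower in Stat5b-/- against wt. Atp5g1 and Atp5g3 are 2 of the 3 genes that encode the same mature c subunit of the proton-driven ring. Atp5g1 had normalised CPM values of 81.9, 67.0 and 82.0 in wt, 59.5, 72.2 and 72.4 in Stat5a-/- and 44.4, 42.9 and 40.4 in Stat5b-/-, with Stat5b-/- below both other lines. On the log2 scale the difference of Stat5b-/- from wt was -0.85 ± 0.12 (SE, adjusted p = 5.8e-05), beside -0.50 ± 0.18 (SE, adjusted p = 0.039) for Atp5g3. The Atp5g3 libraries overlapped, at 1246, 838 and 1020 in wt and 869, 768 and 556 in Stat5b-/-. The third gene, Atp5g2, had a value of 0.24 that did not pass the test. Per kilobase of exon, Atp5g3 (439) was the most abundant of the 3, before Atp5g1 (12.7) and Atp5g2 (2.77). Windows shared with other genes made up 11.1% for Atp5g1, 38.3% for Atp5g2 and 0% for Atp5g3, so the levels of the first 2 are uncertain. The catalytic subunit Atp5b stood at 1432, 1318 and 1358 in wt, 1141, 1080.1 and 1237 in Stat5a-/- and 972, 1040.5 and 1061 in Stat5b-/-, the highest level per library of any nuclear subunit gene in wt. Its log2 fold change was -0.42 ± 0.10 (SE, adjusted p = 0.0034), while the alpha subunit Atp5a1 changed by -0.12, which did not pass the test. Atp5o, the stalk protein that confers oligomycin sensitivity, changed by -0.51 ± 0.09 (SE, adjusted p = 0.00068), but 41.6% of its windows are shared with another gene.

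The largest difference of any subunit gene was that of Cox6a2 (chr7:128205435-128206387, GRCm38, minus strand), the heart and skeletal muscle isoform of a complex IV subunit whose ubiquitous form is Cox6a1 (chr5:115345642-115348981). Cox6a2 had raw read counts of 1225, 1196 and 1205 in wt, 20, 29 and 24 in Stat5a-/- and 77, 66 and 57 in Stat5b-/-. It was therefore well counted in wt and low in both knockout lines, and the 3 lines did not overlap. As normalised CPM it stood at 77.7, 60.4 and 69.6 in wt, 1.4, 2.36 and 2.16 in Stat5a-/- and 5.28, 4.51 and 4.34 in Stat5b-/-. The log2 fold change was -3.87 ± 0.16 (SE, adjusted p = 1.1e-09) in Stat5b-/- against wt and -5.15 ± 0.19 (SE, adjusted p = 2.7e-10) in Stat5a-/- against wt. Between the knockout lines it was higher in Stat5b-/- by 1.27 ± 0.21 (SE, adjusted p = 0.00053). These calls were kept in all 21 alternatives. Cox6a1 stood at 471, 399.7 and 421 in wt, 413, 496 and 440.2 in Stat5a-/- and 319.9, 393 and 353 in Stat5b-/-, with log2 fold changes of -0.28 ± 0.11 (SE, adjusted p = 0.06) and 0.06 ± 0.11 (SE, adjusted p = 0.71) against wt in Stat5b-/- and Stat5a-/-. Per kilobase of exon Cox6a2 stood below Cox6a1 in every line, at 102 to 613 in wt, 2.9 to 641 in Stat5a-/- and 6.93 to 506 in Stat5b-/-.

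The 2 isoforms can be told apart by their reads. Their coding sequences (GENCODE M21) span 336 bases for Cox6a1 and 291 bases for Cox6a2, and are identical at 61.4% of 285 aligned bases. The longest stretch aligned without a gap covers 132 bases, coding bases 205 to 336 of Cox6a1 and 160 to 291 of Cox6a2. Capitals mark the 37 bases that differ.
Cox6a1: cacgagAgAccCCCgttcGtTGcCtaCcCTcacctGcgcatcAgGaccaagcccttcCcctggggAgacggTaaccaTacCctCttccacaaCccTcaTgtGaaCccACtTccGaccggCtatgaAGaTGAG
Cox6a2: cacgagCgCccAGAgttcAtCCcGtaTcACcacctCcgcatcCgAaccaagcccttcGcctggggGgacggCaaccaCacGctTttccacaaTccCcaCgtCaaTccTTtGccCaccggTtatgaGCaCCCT
Only 3.33% of the 50-base windows of Cox6a2 transcripts and 9.16% of those of Cox6a1 occur in any other annotated gene.

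A second tissue-restricted isoform, Cox7a1, the heart and muscle counterpart of Cox7a2, had raw read counts of 78, 97 and 91 in wt, 71, 55 and 53 in Stat5a-/- and 35, 36 and 37 in Stat5b-/-. The Stat5b-/- libraries lay below the other 6, with normalised CPM values of 4.95, 4.9 and 5.26 in wt, 4.96, 4.48 and 4.78 in Stat5a-/- and 2.4, 2.46 and 2.82 in Stat5b-/-. Cox7a1 had a log2 fold change of -0.98 ± 0.17 (SE, adjusted p = 0.0004) in Stat5b-/- against wt and -0.09 ± 0.16 (SE, adjusted p = 0.72) in Stat5a-/- against wt. Its ubiquitous counterpart Cox7a2 had log2 fold changes of 0.02 ± 0.27 (SE, adjusted p = 0.96) and -0.25 ± 0.27 (SE, adjusted p = 0.51). Of 8 tissue-restricted isoforms examined, Cox6a2 and Cox7a1 were thus the 2 that could be tested.

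**Figure D3:**
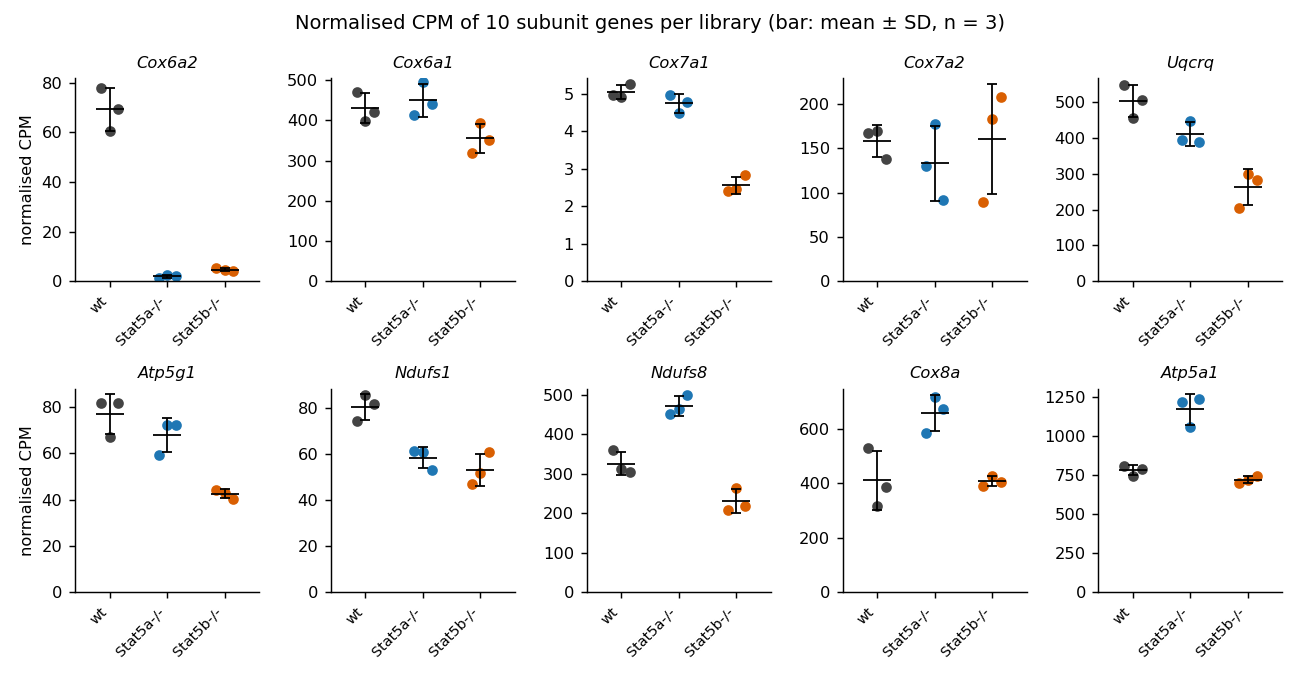
Normalised CPM (y axis, from 0) of 10 subunit genes in the 9 libraries by line (x axis), as points with the mean ± SD of 3 technical replicates. Cox6a2 is near 0 in both knockout lines beside 69.2 in wt, Cox7a1, Uqcrq and Atp5g1 are lowest in Stat5b-/-, and Ndufs8, Cox8a and Atp5a1 are highest in Stat5a-/-.

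Stat5a-/- cells differed from wt in another way. Here 11 of 80 subunit genes were called higher and 8 lower, with a median log2 fold change of -0.01 beside 0.01 over all genes. Over all genes tested 19.8% were called higher and 16.3% lower, shares that the subunit genes (13.8% and 10%) did not exceed. Cox6a2 was the 1 gene lower by more than 2-fold, against 6.49% of all genes tested. The calls followed chromosomes. Of the 11 genes called higher, 10 lie on chromosomes 17, 18 and 19, and the other is Atp5mpl on chromosome 12. All 12 tested subunit genes on those 3 chromosomes had positive log2 fold changes, from 0.40 to 0.72 with a median of 0.54, while the 68 on other chromosomes had a median of -0.03, with 1 called higher and 8 lower (1.47% and 11.8%, beside 15.8% and 17.6% of all genes tested there). The same held for genes of any function: 781 of the 1472 genes tested on chromosomes 17, 18 and 19 were called higher in Stat5a-/-, with a median of 0.47, beside -0.03 for the 12380 genes elsewhere. The grouping by chromosome was chosen with these values known and carries no test.

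The genes on these chromosomes come from 3 complexes. Ndufb8, a membrane-arm subunit on chromosome 19, had normalised CPM values of 139, 101 and 119 in wt, 183, 183 and 225 in Stat5a-/- and 117, 112 and 104 in Stat5b-/-, and all 3 Stat5a-/- libraries exceeded the other 6. On the log2 scale Ndufb8 changed in Stat5a-/- against wt by 0.72 ± 0.13 (SE, adjusted p = 0.00059). Cox8a, on chromosome 19, stood at 529, 316 and 385 in wt, 586, 717 and 672 in Stat5a-/- and 390.3, 427 and 406 in Stat5b-/- and changed by 0.68 ± 0.16 (SE, adjusted p = 0.0039). Atp5a1, the alpha subunit of the ATP synthase, stood at 811, 748 and 793 in wt, 1223, 1061 and 1242 in Stat5a-/- and 698, 721 and 743 in Stat5b-/-, higher in every Stat5a-/- library than in any other. Atp5a1 had a log2 fold change of 0.58 ± 0.10 (SE, adjusted p = 0.00038). Ndufa11 (0.68 ± 0.12 (SE, adjusted p = 0.00066)) and Cox7a2l (0.63 ± 0.13 (SE, adjusted p = 0.0022)), both on chromosome 17, were the other 2 of the 5 largest rises. Also called higher were the core subunits Ndufs8 (0.54), Ndufv1 (0.49) and Ndufv2 (0.49).

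**Figure D4:**
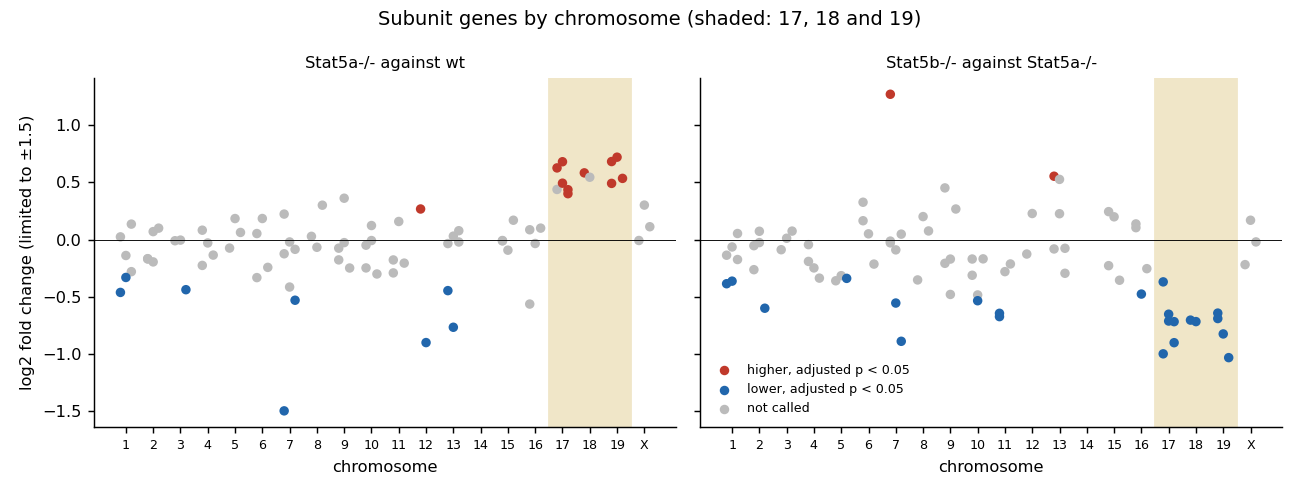
Log2 fold change (y axis) of the 80 tested subunit genes by chromosome (x axis) in Stat5a-/- against wt and in Stat5b-/- against Stat5a-/-, with points coloured by the call at adjusted p under 0.05. The 12 genes on the shaded chromosomes 17, 18 and 19 all lie above 0 on the left and below 0 on the right.

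Among the 8 genes called lower in Stat5a-/- against wt were, besides Cox6a2, the coupling factor Atp5s (-0.90 ± 0.28 (SE, adjusted p = 0.024)) and the complex III subunit Uqcrb (-0.77 ± 0.26 (SE, adjusted p = 0.034)). Atp5s had normalised CPM values of 10.3, 13.1 and 10.8 in wt, 6.78, 6.59 and 4.87 in Stat5a-/- and 3.7, 7.24 and 10.7 in Stat5b-/-, a low level at which 1 Stat5b-/- library reached the wt range. The call of Atp5s was lost without wt replicate 2 or Stat5a-/- replicate 3, and that of Uqcrb without wt replicate 2, wt replicate 3 or Stat5a-/- replicate 3, and 25.5% of Uqcrb windows are shared. Ndufc2 changed by -0.53 ± 0.12 (SE, adjusted p = 0.003) and Ndufs1 by -0.46 ± 0.12 (SE, adjusted p = 0.0066). Ndufs1 and Ndufc2 were thus lower than in wt in both knockout lines, which share the wt libraries, with log2 fold changes of -0.60 and -0.48 in Stat5b-/-. The count of 8 was 5 without wt replicate 2, wt replicate 3 or Stat5a-/- replicate 2, and 17 with corrections for GC content and length.

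The direct comparison of the knockout lines gave 22 subunit genes lower and 2 higher in Stat5b-/- than in Stat5a-/-, with a median log2 fold change of -0.20 beside 0.02 over all genes. Over all genes tested 17.5% were called lower and 16.4% higher, and the subunit genes stood at 27.5% and 2.5%. The 2 called higher became 5 with a correction for length and 9 with corrections for GC content and length. The calls followed chromosomes here as well, since all 12 genes on chromosomes 17, 18 and 19 were called lower (median -0.72), against 10 of the 68 elsewhere (14.7%, median -0.13). Elsewhere 13.8% of all genes tested were called lower (median 0.06), a share close to that of the subunit genes. Of all genes tested on those chromosomes 718 of 1472 were called lower, with a median of -0.43. With a correction for transcript length in each library the median over the subunit genes was -0.028. The tested subunit genes had a median exon length of 1514.5 bases beside 3632.5 for all genes tested, and the part of length in the median was not tested. The median was -0.11 with a correction for GC content and likewise -0.11 without Stat5b-/- replicate 1, the library with the lowest summed level of complexes I to V. Ndufs8 (-1.03 ± 0.11 (SE, adjusted p = 1.5e-05)) and Ndufb10 (-1.0005 ± 0.16 (SE, adjusted p = 0.00044)) were lower by more than 2-fold, against 6.6% of all genes tested. Ndufb10 had normalised CPM values of 344, 246 and 369 in wt, 344, 472 and 483 in Stat5a-/- and 224, 233 and 192 in Stat5b-/-. Further falls were those of Ndufv3 (-0.90 ± 0.11 (SE, adjusted p = 2.5e-05)), Cox7a1 (-0.89 ± 0.17 (SE, adjusted p = 0.0017)) and Ndufb8 (-0.83 ± 0.13 (SE, adjusted p = 0.00028)). Cox7a1 lies on chromosome 7, and the other 4 of these genes on chromosomes 17 and 19. Among the further genes called lower were 4 subunits of complex IV, namely Cox8a at -0.69 ± 0.16 (SE, adjusted p = 0.0046), Cox6b1 at -0.56 ± 0.12 (SE, adjusted p = 0.0029), Cox5b at -0.39 ± 0.10 (SE, adjusted p = 0.008) and Cox6a1 at -0.34 ± 0.11 (SE, adjusted p = 0.033). The call of Cox6a1 was lost without wt replicate 3, Stat5a-/- replicate 2 or 3 or Stat5b-/- replicate 1 or 3, in a fit of only the 2 lines compared, and with a correction for GC content or length, and its value turned to 0.073 with both corrections. That of Cox5b was lost with the correction for length alone. The call of Cox7a2l (-0.37 ± 0.13 (SE, adjusted p = 0.047)) was lost without any of 7 of the 9 libraries, namely the 3 of wt, replicates 1 and 2 of Stat5a-/- and replicates 1 and 2 of Stat5b-/-.

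Besides Cox6a2, the gene called higher in Stat5b-/- than in Stat5a-/- was Cox7c, a small complex IV subunit, with normalised CPM values of 9.26, 8.38 and 8.72 in wt, 6.71, 6.18 and 6.4 in Stat5a-/- and 8.98, 9.29 and 10.1 in Stat5b-/- and a log2 fold change of 0.55 ± 0.14 (SE, adjusted p = 0.0078). The Stat5a-/- libraries of Cox7c lay below the other 6. The difference was not called with a correction for GC content, and 22.1% of its windows are shared with other genes. Across the 3 comparisons 40 of the 80 tested subunit genes were never called. The most frequent pattern among the others, in 10 genes, was a call of lower in Stat5b-/- against both wt and Stat5a-/- without a call between Stat5a-/- and wt, as for Uqcrq, Atp5g1, Cox6b1 and Cox7a1. For 3 genes, Ndufs8, Ndufv3 and Ndufa7, the calls against wt went in opposite directions in the 2 knockout lines. That of Ndufa7 in Stat5b-/- passed narrowly (adjusted p = 0.047), with libraries that overlapped those of wt. These patterns of calls were not counted over all genes tested, so no background share stands beside them.

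Other genes of the pathway were taken from lists of assembly factors, carriers and regulators. In Stat5b-/- against wt, 8 of 16 tested complex I assembly factors were called lower and none higher, beside the 22% background. Ndufaf4 had normalised CPM values of 84.6, 106 and 92.4 in wt, 56.5, 60.1 and 51.5 in Stat5a-/- and 37.9, 41.3 and 45.9 in Stat5b-/-, falling below wt in both knockout lines. Against wt, Stat5b-/- cells differed by -1.18 ± 0.12 (SE, adjusted p = 3.3e-06) on the log2 scale in Ndufaf4, and Nubpl, which delivers iron-sulfur clusters, changed by -1.02 ± 0.18 (SE, adjusted p = 0.00056). All 4 complex V assembly factors were called lower, with Atpaf2 (-0.67 ± 0.10 (SE, adjusted p = 0.00014)) and Tmem70 (-0.62 ± 0.15 (SE, adjusted p = 0.0051)) showing the largest log2 fold changes. In Stat5a-/- against wt, 5 of the 16 and 3 of the 4 were called lower and none higher, beside 16.3% and 19.8% of all genes tested. The assembly factors of the other complexes went both ways in that comparison, with 1 of 4 lower and 1 higher for complex II, 3 of 6 lower and 2 higher for complex III, and 3 of 19 lower and 3 higher for complex IV. The succinate dehydrogenase assembly factor Sdhaf4 stood at 37.8, 44.5 and 41.1 in wt, 23.6, 25.5 and 18.5 in Stat5a-/- and 10.8, 9.02 and 12.3 in Stat5b-/-, with no overlap between the lines. On the log2 scale Sdhaf4 changed by -1.94 ± 0.15 (SE, adjusted p = 3.1e-07) in Stat5b-/- against wt, while Sdhaf2, which adds the flavin to Sdha, was higher (0.42 ± 0.09 (SE, adjusted p = 0.0025)). Of the assembly factors of complex III 1 of 6 was called lower, Uqcc1 (-0.41 ± 0.11 (SE, adjusted p = 0.0081)), and of complex IV 4 of 19, the largest being Cox16 (-0.73 ± 0.28 (SE, adjusted p = 0.049)) and Cox10 (-0.52 ± 0.13 (SE, adjusted p = 0.0064)), a heme farnesyltransferase.

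The mobile carriers and the enzymes upstream are read against the 22% of all genes tested that were called lower and the 24.2% called higher in Stat5b-/- against wt. Cytochrome c1 (Cyc1), the cytochrome of complex III that the name rule does not reach, had normalised CPM values of 258, 185 and 230.3 in wt, 168, 180.3 and 210.4 in Stat5a-/- and 134, 148 and 141 in Stat5b-/-, Stat5b-/- lying below wt. Stat5b-/- stood apart from wt by -0.67 ± 0.13 (SE, adjusted p = 0.00087) in log2 terms for Cyc1, and cytochrome c (Cycs) changed by -0.92 ± 0.27 (SE, adjusted p = 0.015) on 35 reads or fewer in a library. Of 13 genes of coenzyme Q synthesis, 4 were called lower (30.8%) and none higher, led by Coq9 (-0.86 ± 0.19 (SE, adjusted p = 0.0022)) and Pdss1 (-0.66 ± 0.18 (SE, adjusted p = 0.0098)). Of 14 tricarboxylic acid cycle genes, 9 were called lower (64.3%) and none higher. Idh2, the mitochondrial NADP-dependent isocitrate dehydrogenase, had normalised CPM values of 123, 108 and 118 in wt, 143, 125 and 156 in Stat5a-/- and 28.9, 28.0 and 31.3 in Stat5b-/-, low in the Stat5b-/- line alone. Idh2 had a log2 fold change of -1.98 ± 0.11 (SE, adjusted p = 1.3e-08) in Stat5b-/- and 0.29 ± 0.10 (SE, adjusted p = 0.048) in Stat5a-/- against wt, and Mdh2 changed by -0.59 ± 0.14 (SE, adjusted p = 0.0032) in Stat5b-/-. Of 77 tested mitochondrial ribosomal proteins, which make the mitochondrially encoded subunits, 37 were called lower (48.1%) and 3 higher (3.9%) in Stat5b-/- (median log2 fold change -0.33), and 15 lower (19.5%) and 7 higher (9.09%) in Stat5a-/- (median -0.13), where 16.3% and 19.8% of all genes tested were called. The largest of these in Stat5b-/- were Mrpl36 (-0.84 ± 0.08 (SE, adjusted p = 3.3e-06)) and Mrpl38 (-0.84 ± 0.12 (SE, adjusted p = 6e-05)).

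Among 15 tested regulators of mitochondrial biogenesis, 4 were called lower (26.7%, beside 22% of all genes tested) and 1 higher in Stat5b-/- against wt. Myc, a transcription factor known to raise nuclear genes for mitochondrial proteins, had normalised CPM values of 1149.8, 1059 and 1165 in wt, 719.7, 723 and 857 in Stat5a-/- and 329.7, 305 and 247 in Stat5b-/-, stepping down from wt over Stat5a-/- to Stat5b-/- with no overlap. On the log2 scale Myc changed by -1.93 ± 0.13 (SE, adjusted p = 5.3e-08) in Stat5b-/- and -0.55 ± 0.12 (SE, adjusted p = 0.0029) in Stat5a-/- against wt. Slirp, which stabilises mitochondrial messenger RNA, changed by -0.87 ± 0.25 (SE, adjusted p = 0.011) in Stat5b-/-. Nrf1 (0.28 ± 0.12 (SE, adjusted p = 0.068)), Gabpa (-0.22 ± 0.16 (SE, adjusted p = 0.27)) and Tfam (0.14 ± 0.15 (SE, adjusted p = 0.47)), the classical activators of respiratory chain and mitochondrial DNA transcription, did not pass the test. The coactivator Ppargc1a had at most 3 reads in any library and was not tested.

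Of the 13 mitochondrially encoded subunit genes 8 could be tested. In Stat5b-/- against wt 1 of the 8 was called lower and none higher, beside 22% and 24.2% of all genes tested, with a median log2 fold change of 0.17. The exception was mt-Nd3, which had at most 20 reads (-1.78 ± 0.45 (SE, adjusted p = 0.0058)). In Stat5a-/- against wt all 8 values were positive with a median of 0.45, and mt-Nd5 (0.61 ± 0.18 (SE, adjusted p = 0.017)) and mt-Nd6 (0.76 ± 0.16 (SE, adjusted p = 0.0019)) were called higher, 25% of the 8 beside 19.8% of all genes tested. The counting did not use strand, so reads of mt-Nd6 and of RNA antisense to it cannot be told apart. The summed level ranged from 47010 to 69889 normalised CPM in wt, 56040 to 81629 in Stat5a-/- and 46712 to 63860 in Stat5b-/-, so that all 3 lines overlapped. The 5 untested genes, mt-Co2, mt-Co3, mt-Atp6, mt-Atp8 and mt-Nd4l, had 8 reads or fewer in every library beside at least 159061 for mt-Co1. Reads matching several places were not counted, and the part of this in these low counts was not tested.

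**Figure D5:**
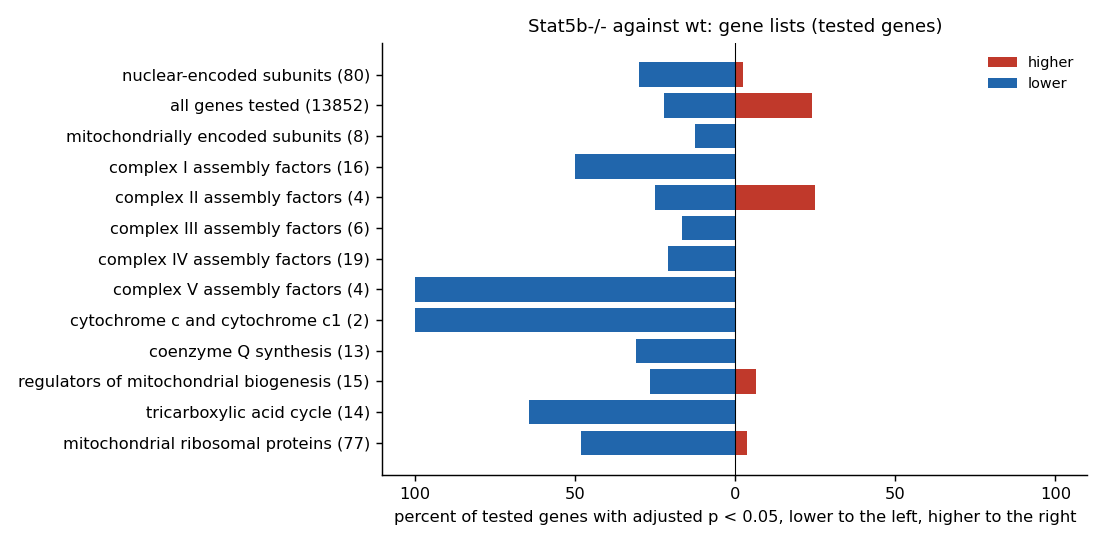
Percent of tested genes called lower (to the left) and higher (to the right) in Stat5b-/- against wt at adjusted p under 0.05 (x axis) for the nuclear-encoded subunits, all genes tested and the other lists (y axis, tested genes in brackets). The nuclear-encoded subunits stand at 30% lower and 2.5% higher beside 22% and 24.2% for all genes tested.

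Promoters from RefSeq (GRCm38.p6, 250 bases before to 50 after the start) were matched for 69 of the 89 subunit genes by gene identifier, 74 promoters in all. Nuclear subunit genes are known to be bound by NRF1, ETS-family factors such as GABP, and YY1, and the letters of each motif were searched on both strands. The NRF1 core, GCGCANGCG, was in 21 of the 74 promoters of subunit genes (28.4%) and 6.25% of all 32851 promoters. The ETS motif CCGGAAG was in 16 of the 74 promoters of subunit genes (21.6%) and 8.86% of all 32851 promoters. The YY1 motif AAGATGGC was in 10 of the 74 promoters of subunit genes (13.5%) and 2.75% of all 32851 promoters. The E-box CACGTG, which MYC can bind, was in 7 of the 74 promoters of subunit genes (9.46%) and 7.15% of all 32851 promoters, and the STAT motif TTCNNNGAA in 6 of the 74 promoters of subunit genes (8.11%) and 8.3% of all 32851 promoters. Of the 24 genes called lower in Stat5b-/- against wt, 20 had a promoter, and among their 21 promoters 6 held the NRF1 core, 6 the ETS motif, 4 the E-box, 2 the YY1 motif and 3 the STAT motif. A match describes letters, not binding.

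The 250 bases before the start are shown for 4 genes of 4 complexes called lower in Stat5b-/- against wt, to set the NRF1, ETS, E-box and STAT matches, in capitals, beside the values above (Ndufa8 changed by -0.43 ± 0.12 (SE, adjusted p = 0.012) on the log2 scale). Ndufa8 holds 2 NRF1 and 2 STAT matches, Sdhd an NRF1 and an ETS match, Cox6b1 an ETS match and Atp5g1 an E-box.
Ndufa8 (chr2:36049339-36049588, minus strand): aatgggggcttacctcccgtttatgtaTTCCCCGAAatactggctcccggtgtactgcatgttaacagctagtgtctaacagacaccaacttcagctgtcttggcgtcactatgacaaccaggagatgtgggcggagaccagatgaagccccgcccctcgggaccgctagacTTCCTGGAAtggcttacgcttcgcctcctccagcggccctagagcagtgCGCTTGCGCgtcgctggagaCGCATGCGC
Sdhd (chr9:50603850-50604099, minus strand): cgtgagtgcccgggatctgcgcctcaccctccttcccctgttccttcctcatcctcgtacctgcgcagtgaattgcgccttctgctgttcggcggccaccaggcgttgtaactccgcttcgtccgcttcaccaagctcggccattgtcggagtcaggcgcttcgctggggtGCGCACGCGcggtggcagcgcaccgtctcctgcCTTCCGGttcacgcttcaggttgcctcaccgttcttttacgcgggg
Cox6b1 (chr7:30626115-30626364, minus strand): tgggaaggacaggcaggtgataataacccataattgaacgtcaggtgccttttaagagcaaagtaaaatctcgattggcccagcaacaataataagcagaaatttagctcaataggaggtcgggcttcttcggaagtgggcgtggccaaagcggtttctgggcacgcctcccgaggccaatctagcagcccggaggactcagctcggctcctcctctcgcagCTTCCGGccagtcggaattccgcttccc
Atp5g1 (chr11:96075632-96075881, minus strand): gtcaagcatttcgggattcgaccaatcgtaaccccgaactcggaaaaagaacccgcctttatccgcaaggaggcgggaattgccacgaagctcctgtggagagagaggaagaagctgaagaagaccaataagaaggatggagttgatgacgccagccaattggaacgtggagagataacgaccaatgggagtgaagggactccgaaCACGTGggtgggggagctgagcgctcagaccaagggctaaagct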

How the data were processed

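The authors trimmed 50-base single-end reads with Trimmomatic, aligned them to GRCm38 with STAR using GENCODE M13, and deposited raw counts per gene made by featureCounts 1.5.1 per the file headers, without strand and without reads matching several places. Here symbols were joined by Ensembl identifier (50376 of 50686 genes). Genes passing edgeR's filterByExpr were tested with edgeR 4.0.16 (R 4.3.3) quasi-likelihood fits over all 9 libraries, 1 term per line, TMM normalization and Benjamini-Hochberg adjustment over 13852 genes at 0.05. The script was checked on simulated data. Same-numbered replicates did not deviate together (mean correlation -0.088 over 9 pairs, beside 0.044 over 18 others), so no pairing was used. Genes named in the text are a fixed set of main subunits, tissue-restricted isoforms, up to 5 non-overlapping rises and falls per comparison, the highest and lowest per complex by length-scaled level, and 2 leading members of each other list. Some results that this rule names are not reported here. Members and lists were chosen with earlier results of these data known. Alternatives were DESeq2 1.42.0, other normalizations, filters, offsets for GC and length, a replicate block, no chromosomes 17, 18 and 19, and leaving out each library.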

Additional observations from a re-analysis of the deposited data

Results flagged for a closer look

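For 3 complex I genes the 2 knockout lines departed from wt in opposite directions, each past the test, and the direct difference between the knockout lines was past it too. The log2 fold change of Stat5b-/- against Stat5a-/- was -1.03 for Ndufs8, -0.90 for Ndufv3 and -0.72 for Ndufa7. Against wt, Ndufs8 stood at 0.54 in Stat5a-/- and -0.50 in Stat5b-/-, Ndufv3 at 0.44 and -0.47, and Ndufa7 at 0.40 and -0.32. The call of Ndufa7 in Stat5b-/- against wt was narrow (adjusted p = 0.047 by edgeR, with overlapping libraries) and was lost without wt replicate 1 or 3, Stat5b-/- replicate 1 or 3, with a replicate block or with a length offset, and its call in Stat5a-/- against wt was lost without wt replicate 2 or 3 or Stat5a-/- replicate 2. All 3 genes lie on chromosomes 17 and 19, where most genes called in Stat5a-/- were called higher. The cause was not tested.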

How the results depend on the processing

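The count of subunit genes lower in Stat5b-/- against wt (24) ranged from 17 to 33 over all alternatives and its median stayed negative. The 2 higher became 1 with RLE normalization or only the 2 lines compared, 0 with a replicate block, 5 with a length offset, 7 with GC and length offsets, and 0 to 3 leaving out 1 library. In Stat5a-/- against wt the 11 higher became 1 without chromosomes 17, 18 and 19. The 8 lower became 5 with a replicate block, 17 with GC and length offsets, and 5 to 10 leaving out 1 library. In Stat5b-/- against Stat5a-/- the 2 higher became 4 with no filter on low counts, 5 with a length offset and 9 with GC and length offsets, the 22 lower became 11 without chromosomes 17, 18 and 19, and the median of -0.20 became -0.028 with a length offset and -0.012 with GC and length offsets. Cox6a1 in Stat5b-/- against Stat5a-/- reversed from -0.34 to 0.073 with GC and length offsets. The combined GC and length correction was chosen after seeing the data. The cause of these shifts was not tested. Replicate numbers did not pair the samples, and the counts with the replicate block were 20 lower in Stat5b-/- against wt and 20 lower against Stat5a-/-. The 9 untested genes had too few reads for a comparison at this depth, and with 1 line per genotype no alternative bears on differences between lines of the same genotype.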
